A study of Mus musculus with 20 samples.

Results

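Complement, fibrinogen and acute phase genes were described in the kidney cortex of mice with 3 kinds of acute kidney injury. The set was chosen by symbol and lists 8 genes: C3, C4b, Cfb, Cfi, Fga, Fgb, Fgg and Serpina3n. Of these, 6 are rows of the expression table of 6025 genes and all 6 passed the filter on low values, while C4b and Cfi were not analysed here. RNA was sequenced from 20 wild-type (WT) mice aged 8 weeks, 1 library a mouse, in 4 groups: control (n = 8), ischemia-reperfusion injury at 24 h (IRI, n = 4), rhabdomyolysis at 24 h (n = 4) and cisplatin at 72 h (n = 4). The strain is written C57BL/6 in the sample labels and C57BL/6J in the protocol. IRI stops and then restores renal blood flow, rhabdomyolysis floods the kidney with the contents of damaged muscle, and the chemotherapy drug cisplatin harms tubule cells through DNA damage. Injury and time differ together for cisplatin, so drug and time cannot be told apart. The controls are labelled mock, while the design text speaks of mock and vehicle animals. The sex of the mice, the length of ischemia, the agent behind rhabdomyolysis and the cisplatin dose are not given in the sources used here. Because the samples are whole cortex, fewer cells of a type and less RNA per cell cannot be told apart.

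Complement is a cascade of plasma proteins that tags surfaces for removal. C3 is its central component, and complement factor B, the product of Cfb, supplies the protease of the alternative pathway convertase that cleaves C3. Fibrinogen is the soluble precursor of the fibrin clot and is assembled from an alpha, a beta and a gamma chain, encoded by Fga, Fgb and Fgg. Serpina3n encodes a secreted serine protease inhibitor of the antichymotrypsin family. All of these are known as acute phase genes of the liver, where interleukin-6 acting through STAT3, together with C/EBP and NF-kappaB factors, raises their transcription in inflammation. Tubule cells of the kidney also transcribe C3 and fibrinogen genes after injury.

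The genes lie at 4 places on the mouse genome (GRCm38, GENCODE M21). Fgg (chr3:83007724-83015049, plus strand), Fga (chr3:83026076-83033627, plus strand) and Fgb (chr3:83040141-83049863, minus strand) sit side by side within 42.14 kb and are the 3 protein-coding genes of that stretch. C3 is at chr17:57203970-57228136 and Cfb at chr17:34856374-34862518, both on the minus strand, and Serpina3n is at chr12:104406729-104414329 on the plus strand. The promoters of the 5 genes that rose in every injury are shown because these were the members called higher in all 3, each by its own amount. The promoter of Cfb is not shown. Each is 300 bases of RefSeq sequence (GRCm38.p6) from 250 bases before the start of transcription to 50 after it, written 5′ to 3′ on the gene's strand. Capitals mark matches to 4 motifs searched on both strands: TTCNNNGAA (the palindrome bound by STAT factors), CTGGGAA (the core of the interleukin-6 response element), TTGCNNAA (bound by C/EBP factors) and GTTAAT (the core of the HNF1 site). For Fga and Serpina3n the RefSeq start differs from the first base of the GENCODE gene.
Fga (chr3:83025903-83026202, plus strand): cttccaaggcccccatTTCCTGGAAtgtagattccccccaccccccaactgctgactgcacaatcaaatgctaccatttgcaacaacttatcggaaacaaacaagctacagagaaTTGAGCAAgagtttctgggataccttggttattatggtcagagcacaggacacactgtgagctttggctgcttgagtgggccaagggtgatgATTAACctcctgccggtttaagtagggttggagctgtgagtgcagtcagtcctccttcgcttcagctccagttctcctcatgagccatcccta
Fgb (chr3:83049814-83050113, minus strand): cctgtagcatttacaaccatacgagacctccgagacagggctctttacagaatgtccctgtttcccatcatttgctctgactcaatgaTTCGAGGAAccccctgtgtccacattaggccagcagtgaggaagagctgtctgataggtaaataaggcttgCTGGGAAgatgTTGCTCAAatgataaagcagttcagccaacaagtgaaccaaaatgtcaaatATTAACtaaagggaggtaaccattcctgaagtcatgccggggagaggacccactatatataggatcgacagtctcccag
Fgg (chr3:83007474-83007773, plus strand): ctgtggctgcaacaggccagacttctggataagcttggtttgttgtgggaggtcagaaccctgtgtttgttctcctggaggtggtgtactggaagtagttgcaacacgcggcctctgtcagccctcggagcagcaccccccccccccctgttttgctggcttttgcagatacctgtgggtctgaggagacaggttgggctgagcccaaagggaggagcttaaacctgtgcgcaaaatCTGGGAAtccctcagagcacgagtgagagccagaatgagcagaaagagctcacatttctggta
C3 (chr17:57228087-57228386, minus strand): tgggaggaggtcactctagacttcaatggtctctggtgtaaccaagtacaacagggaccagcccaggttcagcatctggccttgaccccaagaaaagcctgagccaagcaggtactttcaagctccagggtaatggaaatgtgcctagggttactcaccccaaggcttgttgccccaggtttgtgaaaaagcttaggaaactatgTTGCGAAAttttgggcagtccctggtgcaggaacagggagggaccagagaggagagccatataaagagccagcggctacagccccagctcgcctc
Serpina3n (chr12:104406458-104406757, plus strand): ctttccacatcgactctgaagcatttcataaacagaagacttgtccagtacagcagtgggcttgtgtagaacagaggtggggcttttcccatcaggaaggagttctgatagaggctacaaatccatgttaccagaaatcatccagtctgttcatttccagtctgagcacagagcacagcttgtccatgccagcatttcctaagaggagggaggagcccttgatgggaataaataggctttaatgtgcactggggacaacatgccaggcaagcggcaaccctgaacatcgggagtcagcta

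Counted from the first transcribed base as position 0, the STAT palindrome spans positions -234 to -226 in Fga and -162 to -154 in Fgb. The interleukin-6 core lies at -91 to -85 in Fgb and at -13 to -7 in Fgg. A C/EBP-type match lies at -135 to -128 in Fga, -80 to -73 in Fgb and -45 to -38 in C3. The HNF1 core lies at -43 to -38 in Fga and -29 to -24 in Fgb, on the reverse strand in both. No match overlaps another, Fgb is the 1 promoter of the 5 that holds all 4, and in Serpina3n none of the 4 letter strings is in this window. Among 32851 RefSeq promoters of the same length, 8.3% hold the STAT palindrome, 11.1% the interleukin-6 core, 10.8% the C/EBP-type site and 7.1% the HNF1 core. These matches are descriptions of the letters, and binding was not measured.

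Expression is given in CPM, reads scaled to the size of the library, and 1 CPM stood for 6.07 to 10.6 reads, depending on the library. The table holds 3.48 to 5.40 M reads a library, and it is a set selected for change: in 1 or more injuries, each gene is 1.5-fold or more away from the mean of the controls (smallest 1.53-fold). By their identifiers the libraries form 2 ranges, one with the IRI mice and controls 1 to 4, and one with the cisplatin mice, the rhabdomyolysis mice and controls 5 to 8. Each injury was therefore set against the 4 controls of its own range, with limma on log2(CPM + 1) over the 5672 genes whose mean reached 1 CPM, and p-values were adjusted over all of them with a threshold of 0.05. Fold changes in the text are ratios of mean CPM, and log2 differences come from the fit, which understates the change of genes with low values. No member differed between the control ranges at that threshold. The median log2 difference of all genes was 0.08 in IRI (0.004 to 0.19 under other scalings), 0.31 in rhabdomyolysis (0.14 to 0.57) and 0.30 in cisplatin (0.03 to 0.43), and every member kept its direction in each injury under these scalings. A library that stands apart touches this set: rhabdomyolysis mouse 3 had 209 CPM of the acute phase gene Hp (haptoglobin) and 17.8 CPM of Itih4, against 2.66 to 5.39 CPM and 0 to 0.197 CPM in the other rhabdomyolysis mice. In the same library Cidec, a lipid droplet gene of fat cells, was at 18.5 CPM. It was at most 2.38 CPM in the rest of its group and at most 0.387 CPM in controls. Cidec was also raised in the other injuries, at 4.33 to 12.4 CPM in IRI and 6.42 to 14.1 CPM in cisplatin. The summed level of 5 fat cell genes (Cidec, Car3, Fabp4, Plin4 and Scd1) was 468 CPM in rhabdomyolysis mouse 3 and 115 to 158 CPM in the other 3. It was 238 to 383 CPM in controls, 91.1 to 121 CPM in IRI and 190 to 216 CPM in cisplatin. Adipoq, Plin1, Lep, Retn and Cfd, also on that list, were not analysed here. These genes were chosen after their values were seen, and their part in the results was not tested.

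All 6 members passed the test in each injury, where 80.7% of all genes passed in IRI, 95.3% in rhabdomyolysis and 91.8% in cisplatin, so passing says little by itself. Higher were 5 members, against 40.6%, 48.8% and 47.8% of all genes in the same order, and 1 was lower, against 40.1%, 46.5% and 44.0%. Higher by at least 4-fold (a log2 difference of 2) were 5 members in IRI, against 3.49% of all genes. They were 4 members in rhabdomyolysis, against 8.23%, and 5 in cisplatin, against 7.33%. The members were chosen with earlier results of these data known, so these counts are descriptions and not a test of the set. Cfb was the member that fell in all 3 injuries. The median log2 difference of the 6 members was 4.02 in IRI, 3.75 in rhabdomyolysis and 5.01 in cisplatin.

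**Figure D1:**
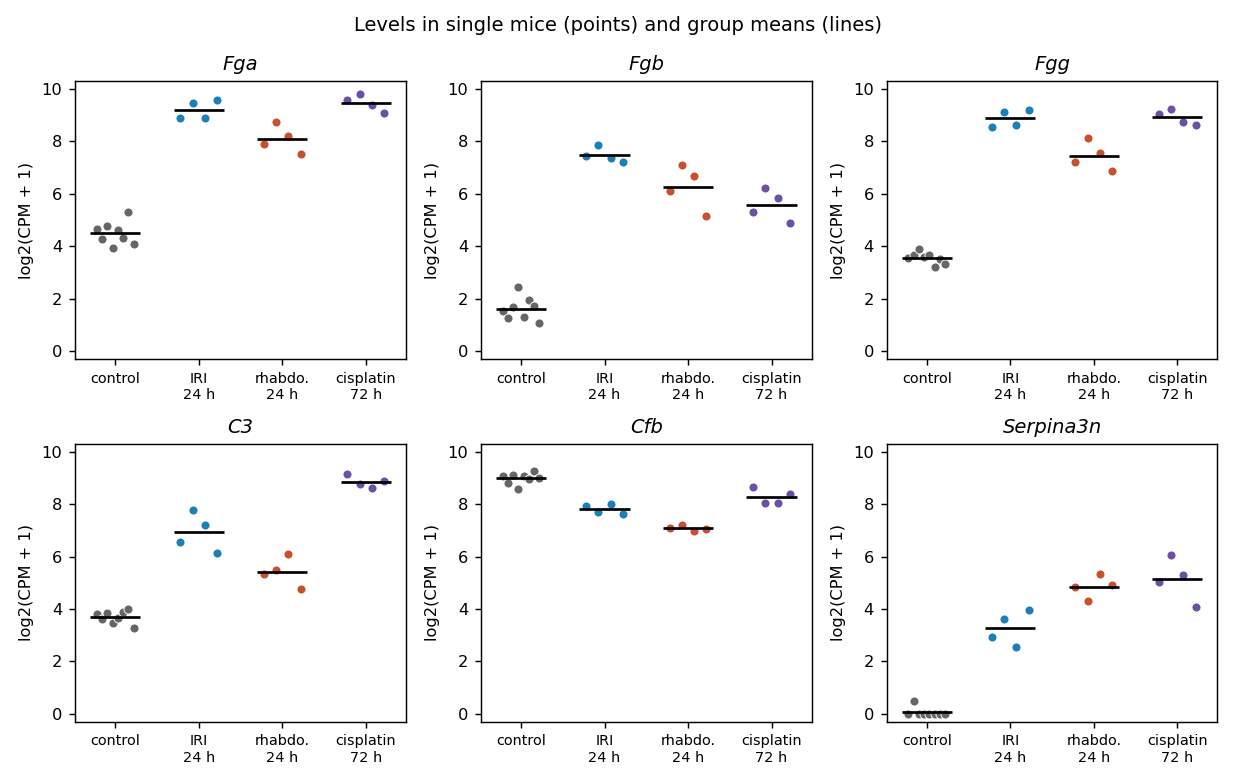
Level of each gene as log2(CPM + 1) in single mice (points) with the group mean (black line), for control (n = 8), IRI at 24 h, rhabdomyolysis at 24 h and cisplatin at 72 h (n = 4 each). Every injured mouse lies above all 8 controls for Fga, Fgb, Fgg, C3 and Serpina3n, and for Cfb all injured mice but cisplatin mouse 1 lie below them.

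The fibrinogen alpha chain gene Fga was transcribed at a low level in control cortex. The 8 controls ran from 14.2 to 38.2 CPM with a median of 21.2 CPM. In IRI the mice had 470, 700, 478 and 760 CPM, in rhabdomyolysis 235, 427, 293 and 182 CPM, and in cisplatin 768, 889, 667 and 542 CPM. No injured mouse overlapped the controls, rhabdomyolysis lay below the other injuries, and IRI overlapped cisplatin. Of the genes tested, 31.0% had all 4 IRI mice above all 8 controls, against 42.3% for rhabdomyolysis and 40.7% for cisplatin. Against matched controls Fga was 28.9-fold higher in IRI (limma log2 4.79 ± 0.26 SE, adjusted p = 1.11e-12). In rhabdomyolysis it was 11.8-fold higher (log2 3.51 ± 0.26, adjusted p = 2.98e-11), and in cisplatin 29.7-fold higher (log2 4.89 ± 0.26, adjusted p = 2.25e-13).

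The gamma chain gene Fgg moved with Fga. Controls had 8.34 to 13.8 CPM, with a median of 10.8 CPM. The IRI mice had 371, 561, 398 and 592 CPM, the rhabdomyolysis mice 147, 277, 186 and 115 CPM, and the cisplatin mice 529, 607, 428 and 394 CPM. Again no injured mouse overlapped the controls, and IRI and cisplatin covered much the same range. Fgg was 40.7-fold higher in IRI, 18.3-fold in rhabdomyolysis and 49.5-fold in cisplatin, with limma log2 differences of 5.21, 4.00 and 5.48 (SE 0.21 each) and adjusted p of 7.65e-15, 9.97e-14 and 8.28e-16. A long noncoding RNA gene, Gm30097, overlaps Fgg on the opposite strand and was not analysed here.

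The beta chain gene Fgb had the lowest control level of the 3 chains and the largest rise in IRI. Its controls had 1.10 to 4.46 CPM, which rests on 8 to 31 reads a library. The IRI mice had 172, 233, 164 and 147 CPM, the rhabdomyolysis mice 67.7, 135, 101 and 34.7 CPM, and the cisplatin mice 38.3, 73.3, 55.9 and 28.9 CPM. Unlike Fga and Fgg, Fgb was lowest in cisplatin, where the range overlapped that of rhabdomyolysis, while every IRI mouse lay above every mouse of the other injuries. Against matched controls it was 72.0-fold higher in IRI (limma log2 5.74 ± 0.33 SE, adjusted p = 3.29e-12), 43.8-fold in rhabdomyolysis (log2 4.74 ± 0.33, adjusted p = 1.38e-11) and 25.3-fold in cisplatin (log2 4.05 ± 0.33, adjusted p = 3.28e-10). Among the 5672 genes ranked by rise, Fgb, Fgg and Fga stood at 5, 8 and 10 in IRI. They stood at 31, 67 and 101 in rhabdomyolysis and at 64, 12 and 27 in cisplatin.

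For C3, the hub of the complement cascade, the 3 injuries did not overlap each other, which held for Cfb too. The share of all genes with such separation was not counted. The controls had 8.70 to 15.0 CPM with a median of 12.2 CPM. The IRI mice had 92.3, 216, 148 and 69.9 CPM, the rhabdomyolysis mice 39.1, 43.7, 67.3 and 26.1 CPM, and the cisplatin mice 566, 432, 385 and 470 CPM. The 4 groups did not overlap, with cisplatin highest, then IRI, rhabdomyolysis and control, although the lowest IRI mouse (69.9 CPM) and the highest rhabdomyolysis mouse (67.3 CPM) were close. C3 was 11.1-fold higher in IRI (limma log2 3.24 ± 0.27 SE, adjusted p = 8.94e-10), 3.61-fold in rhabdomyolysis (log2 1.72 ± 0.27, adjusted p = 3.68e-06) and 38.0-fold in cisplatin (log2 5.15 ± 0.27, adjusted p = 1.97e-13). The highest C3 value in rhabdomyolysis came from mouse 3, the library that stands apart, and without it the log2 difference was 1.49 (limma adjusted p = 2.61e-05). C3 ranked 46 in IRI, 686 in rhabdomyolysis and 21 in cisplatin.

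Cfb, whose product joins C3b to form the alternative pathway convertase, went the other way. Control cortex already held 375 to 610 CPM of it, with a median of 518 CPM. The IRI mice had 240, 209, 258 and 198 CPM, the rhabdomyolysis mice 136, 148, 126 and 131 CPM, and the cisplatin mice 401, 260, 259 and 332 CPM. All IRI and rhabdomyolysis mice and 3 of the 4 cisplatin mice lay below all controls. Rhabdomyolysis lay below the other injuries, while the highest IRI mouse (258 CPM) and the lowest cisplatin mouse (259 CPM) all but touched. Of the genes tested, 33.8% had all 4 IRI mice below all 8 controls, against 42.7% for rhabdomyolysis and 38.0% for cisplatin. Cfb was at 47.4% of its matched controls in IRI, 25.2% in rhabdomyolysis and 58.3% in cisplatin, with limma log2 differences of -1.07, -1.98 and -0.80 (SE 0.14 each) and adjusted p of 8.57e-07, 1.82e-11 and 2.30e-05. Gm20547, an overlapping gene on the same strand, is identical to Cfb over 81.7% of the longest Cfb transcript, so reads of the pair could have been divided between them in counting. The summed level of 10 proximal tubule markers fell in the same mice, from 26081 to 47634 CPM in controls to 8667 to 14133 CPM in IRI, to 8177 to 9625 CPM in rhabdomyolysis and, lowest, to 4194 to 7478 CPM in cisplatin, and its part in the fall of Cfb was not tested.

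Serpina3n was near absent from control cortex. It had 0 reads in 7 controls and 3 reads, or 0.422 CPM, in control 2. The IRI mice had 6.69, 11.3, 4.82 and 14.4 CPM, the rhabdomyolysis mice 27.9, 18.6, 39.6 and 29.1 CPM, and the cisplatin mice 32.0, 66.4, 38.7 and 15.9 CPM. All injured mice lay above all controls, IRI lay below the other injuries, and rhabdomyolysis overlapped cisplatin. In IRI, 304 reads stood against 3 in the matched controls, a ratio of 90.9 with an exact 95% interval of 30.8 to 443 that covers counting error only, and all 3 of those reads came from control 2. Against a floor of 3 reads a library, rhabdomyolysis was at least 64.3-fold and cisplatin at least 85.4-fold higher, while the IRI mean was 22.6 times that floor. The IRI ratio and these bounds are different measures and give no order of the injuries. The limma log2 differences were 3.14, 4.85 and 5.13 (SE 0.32 each), with adjusted p of 1.89e-08, 4.99e-12 and 3.47e-12. With a control mean of 0.0528 CPM, Serpina3n reached the filter of 1 CPM through the injured mice alone. Its p-values are therefore no independent support for a rise. Serpina3n has close relatives in its gene cluster, among them Serpina3i (82.1% identity over 90.3% of its longest transcript) and Serpina3c (88.0% over 59.1%), so its reads could have been divided between copies.

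**Figure D2:**
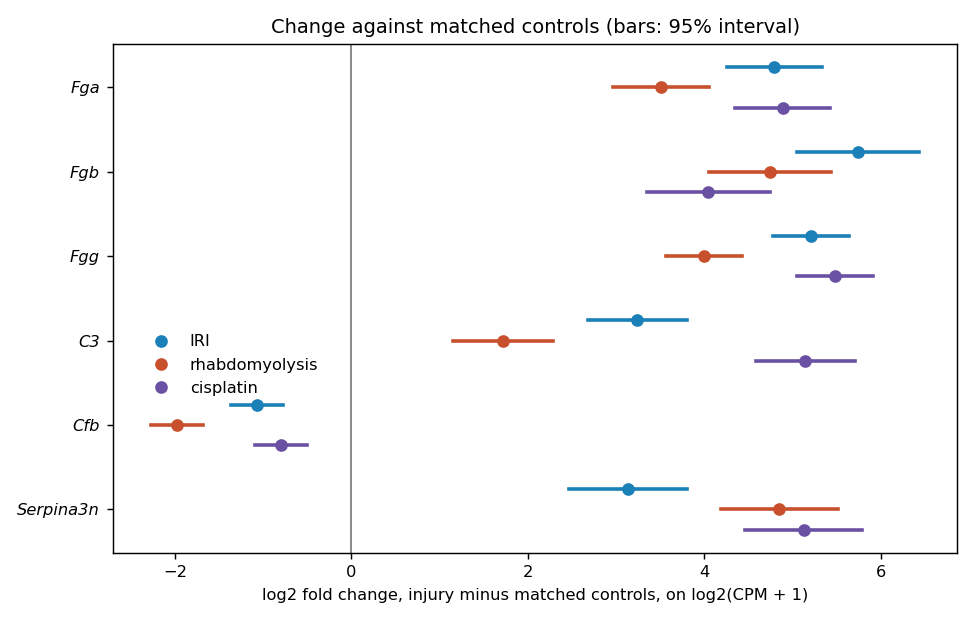
Log2 fold change of each gene against matched controls, on the log2(CPM + 1) scale (points), with its 95% interval (bars), for IRI, rhabdomyolysis and cisplatin. Cfb lies below 0 in all 3 injuries and the other 5 genes lie above it, with rhabdomyolysis lowest for Fga, Fgg and C3, cisplatin lowest for Fgb and IRI lowest for Serpina3n.

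Differences between injuries were tested for each member. Rhabdomyolysis and cisplatin share an identifier range, and 4 of 6 members differed between them, where 54.1% of all genes did. C3 was lower in rhabdomyolysis, by 10.8-fold on the fitted log2(CPM + 1) scale (limma log2 -3.43, 95% interval -3.99 to -2.87, adjusted p = 8.43e-10). Fgg, Fga and Cfb were also lower, with log2 differences of -1.48, -1.38 and -1.18 and limma adjusted p of 3.22e-06, 0.000130 and 4.33e-07. Fgb leaned the opposite way, at 0.70 (95% interval 0.003 to 1.39), and missed the threshold (limma adjusted p = 0.0831). It passed with quantile normalization (0.90, adjusted p = 0.0377), with edgeR on recovered reads (0.89, adjusted p = 0.0216), with DESeq2 (0.91, adjusted p = 0.0448), without rhabdomyolysis mouse 4 (1.06, adjusted p = 0.00583) and without cisplatin mouse 2 (0.92, adjusted p = 0.0310). Without rhabdomyolysis mouse 2 it shrank to 0.42 and did not pass, so over single mice left out the Fgb difference ran from 0.42 to 1.06. Serpina3n did not pass either, at -0.28 with an interval from -0.94 to 0.39 (limma adjusted p = 0.483).

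For IRI, whose controls are of the other range, effects were subtracted, each taken against its own controls. Against rhabdomyolysis, also a 24 h injury, 5 of 6 members passed, where 52.0% of all genes did. The IRI effect was the higher by a log2 difference of 1.52 for C3, 1.28 for Fga, 1.21 for Fgg and 0.91 for Cfb, which fell less in IRI (limma adjusted p = 0.00241, 0.00624, 0.00169 and 0.000796). For Serpina3n it was the lower, by -1.71 (limma adjusted p = 0.00352). Fgb was at 1.00 (95% interval 0.01 to 1.98, limma adjusted p = 0.0820), and it passed with all 8 controls pooled (1.21, adjusted p = 0.00262), without control 4 (1.24, adjusted p = 0.0334) and without rhabdomyolysis mouse 2 (1.27, adjusted p = 0.0255). Without rhabdomyolysis mouse 4 it shrank to 0.63 and did not pass.

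Against cisplatin, 3 of 6 members passed, where 30.3% of all genes did. The IRI effect on C3 was lower by a log2 difference of -1.91 (limma adjusted p = 0.000717) and that on Serpina3n by -1.99 (limma adjusted p = 0.00202). For Fgb the IRI effect was the higher, by 1.69 (95% interval 0.71 to 2.68, limma adjusted p = 0.00934), a call that was lost on recovered reads with edgeR (1.54, adjusted p = 0.0954) and DESeq2 (1.54, adjusted p = 0.0516). The Serpina3n calls, whose matched controls hold 3 reads in IRI and 0 in the other range, were lost with edgeR although its differences were larger, both against rhabdomyolysis (log2 -4.60, adjusted p = 0.207) and against cisplatin (log2 -4.91, adjusted p = 0.239). For Fga, Fgg and Cfb no difference passed: the values were -0.10 (interval -0.86 to 0.67), -0.27 (-0.88 to 0.33) and -0.27 (-0.69 to 0.15). These intervals still allow differences of some size for Fga and Fgg, and Cfb passed with all 8 controls pooled (-0.45, limma adjusted p = 0.0136).

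**Figure D3:**
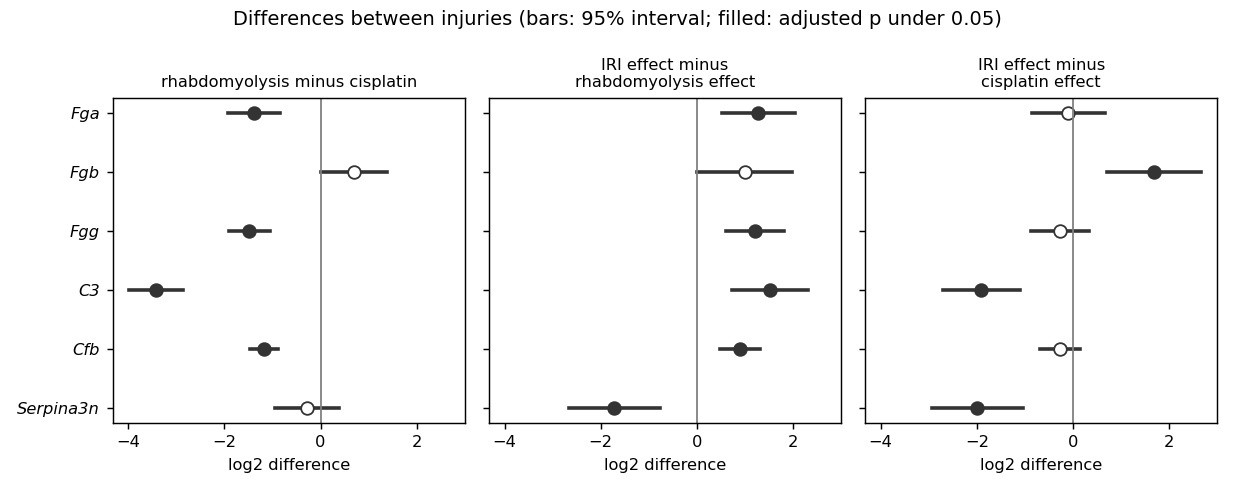
Log2 differences between injuries for the 6 genes (points, filled where the limma adjusted p is under 0.05) with 95% intervals (bars). The left panel compares rhabdomyolysis with cisplatin directly, and the other panels subtract effects that were each taken against matched controls. Fgb lies above 0 in all 3 panels and is filled in the right panel alone, while C3, Fga, Fgg and Cfb lie below 0 in the left panel.

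Since the 3 fibrinogen chains are assembled into 1 protein, their proportions were also compared within each library. This comparison was added after the levels were seen. Of 18 permutation tests on the ratios none passed after Benjamini-Hochberg adjustment (smallest adjusted p = 0.0514). With 4 mice against 4, the smallest p such a test can give is 0.0286. The ratios are therefore given as descriptions. The ratio of Fgb to Fga by CPM was 0.366, 0.333, 0.343 and 0.194 in the IRI mice. It was 0.288, 0.317, 0.346 and 0.191 in the rhabdomyolysis mice and 0.0499, 0.0825, 0.0838 and 0.0532 in the cisplatin mice. IRI and rhabdomyolysis covered the same range, and cisplatin lay wholly below both. Controls ran from 0.0594 to 0.313 with a median of 0.0770, and the highest, control 4, is also the control with the most Fgb reads (31). The ratio of Fgb to Fgg was likewise lowest in cisplatin, at 0.0724 to 0.130, against 0.249 to 0.463 in IRI, 0.301 to 0.545 in rhabdomyolysis and 0.119 to 0.408 in controls. The ratio of Fgg to Fga was narrower: it lay between 0.778 and 0.832 in IRI, 0.624 and 0.649 in rhabdomyolysis and 0.642 and 0.726 in cisplatin, against 0.276 to 0.768 in controls.

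**Figure D4:**
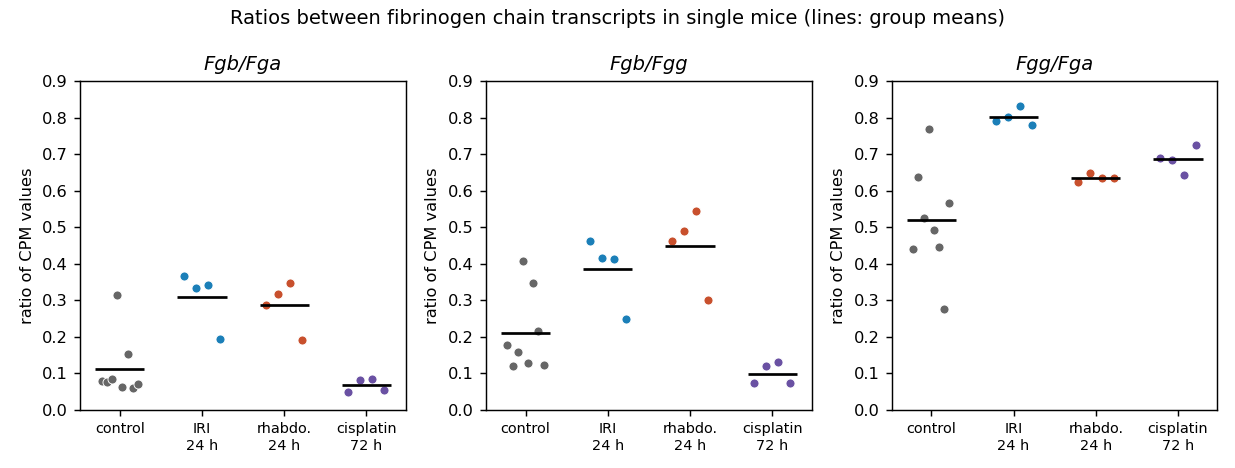
Ratios of CPM values between fibrinogen chain transcripts in single mice (points) with group means (lines). The 4 cisplatin mice lie below all IRI and rhabdomyolysis mice in both ratios that hold Fgb, while Fgg/Fga lies between 0.624 and 0.832 in all 12 injured mice.

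Per kilobase of annotated transcript, Fgb was below Fga and Fgg in injury, and how close Fga and Fgg were depended on the transcript taken. With the longest coding transcripts, Fga had 233 CPM per kb, Fgg 276 and Fgb 47.0 in IRI. In rhabdomyolysis the values were 110, 104 and 22.3 CPM per kb, and in cisplatin 277, 281 and 12.9. With the shortest coding transcripts, Fga and Fgg had 289 and 283.5 CPM per kb in IRI. They lay farther apart in rhabdomyolysis (136.4 and 106.9 CPM per kb) and in cisplatin (343.9 and 288.8). The Fgb transcript in GENCODE (3810 bases) runs past the end of the RefSeq gene, and with the shorter end (1705 bases) Fgb had 105, 49.7 and 28.8 CPM per kb, still the lowest of the 3 chains in each injury. Which end these transcripts use was not tested.

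The order of the mice by level was also read for each chain. Within IRI, Fga and Fgg put the mice in the same order (4, 2, 3, 1 from high to low), while Fgb put mouse 4 last. Within rhabdomyolysis all 3 chains had the order 2, 3, 1, 4, and mouse 2 exceeded mouse 4 by 2.34 times for Fga, 2.40 times for Fgg and 3.89 times for Fgb. Within cisplatin, Fga and Fgg had the order 2, 1, 3, 4 and Fgb the order 2, 3, 1, 4, so all 3 chains gave 1 order in rhabdomyolysis alone. C3 did not share these orders: it was highest in mouse 2 in IRI, as was Fgb, mouse 3 in rhabdomyolysis and mouse 1 in cisplatin. Serpina3n was highest in mouse 4, mouse 3 and mouse 2 in turn, and in cisplatin it had the same order as Fgb. With 4 mice a group, these orders are descriptions.

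For each member, the genes outside the set whose log2 changes over the 12 injured libraries lay nearest were found by the root mean square difference. C3 was followed most closely by Serpina10 (0.35), the gene of a secreted inhibitor of coagulation factor Xa, which rose from 0.826 to 21.8 CPM in IRI and from 0.658 CPM to 5.67 CPM in rhabdomyolysis and 67.2 CPM in cisplatin. The next gene to C3 was the retinaldehyde dehydrogenase Aldh1a1 (0.76). Cfb was nearest to 2 other genes with a high control level, the growth hormone receptor gene Ghr (0.17) and the basement membrane gene Tinag (0.18). Ghr stood at 44.5%, 22.7% and 59.1% of its controls in IRI, rhabdomyolysis and cisplatin, beside 47.4%, 25.2% and 58.3% for Cfb, and its call in cisplatin was lost with quantile normalization (log2 -0.20, limma adjusted p = 0.261). Fga and Fgg lay 0.51 from each other, nearer than any gene outside the set lay to either, while Fgb lay 1.08 from Fga and 1.04 from Fgg. Outside the set, the nearest genes to the fibrinogen chains were Smpdl3b (0.73) and Cyr61 (0.74) for Fga, Akr1b8 (0.80) and Sprr1a (1.04) for Fgg, and Spp1 (0.94), the osteopontin gene, and Akr1b8 (1.03) for Fgb. Serpina3n was nearest to the ephrin receptor gene Epha2 (0.57) and the metallothionein gene Mt2 (0.62).

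Other genes of the pathways were counted from lists, which were also chosen with earlier results of these data known. Their counts are descriptions, to be read against the share of all genes tested. Of all genes, 40.6% rose and 40.1% fell in IRI, 48.8% and 46.5% in rhabdomyolysis, and 47.8% and 44.0% in cisplatin. Of 5 classical and lectin pathway genes tested, from 17 listed, 2 rose and 1 fell in IRI, 4 rose and 1 fell in rhabdomyolysis, and 3 rose and 1 fell in cisplatin, so that the share that rose in IRI was near that of all genes. The list medians were 0.45, 1.08 and 1.04 on the log2 scale. C2, the protease of the classical pathway convertase and neighbour of Cfb, was the gene that fell, to 56.7%, 30.7% and 75.3% of its controls (limma adjusted p = 7.80e-05, 9.58e-10 and 0.0126). The loss in cisplatin was not called without cisplatin mouse 2 (log2 -0.29, limma adjusted p = 0.0712). C1qa, a chain of the recognition molecule C1q that macrophages make, rose 1.57-fold, 2.48-fold and 2.52-fold (limma log2 0.59, 1.19 and 1.28), and in IRI this call was lost with quantile normalization (0.45, adjusted p = 0.107) and without control 3, control 4 or IRI mouse 1 (adjusted p = 0.0570, 0.0833 and 0.130).

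Of 4 alternative and terminal pathway genes tested, from 10 listed, 1 rose and 2 fell in IRI, and 2 rose and 2 fell in each other injury, with medians of -0.77, -0.57 and -0.26. These counts lie near the shares of all genes that rose (40.6%, 48.8% and 47.8%) and fell (40.1%, 46.5% and 44.0%). C8a and C8g, chains of the membrane attack complex, fell in every injury. C8a went from 16.7 CPM to 0.382 CPM in IRI and from 19.9 CPM to 1.60 CPM in rhabdomyolysis and 6.38 CPM in cisplatin (limma log2 -3.69, -3.00 and -1.51). C8g stood at 28.0%, 24.3% and 28.3% of its controls. Cfp, which encodes properdin, the stabiliser of the alternative convertase, was low throughout (0.422 and 0.600 CPM in matched controls) and passed as higher in all 3 injuries (limma log2 0.81, 0.59 and 1.00). With quantile normalization that call was lost in IRI (0.52, adjusted p = 0.0563) and rhabdomyolysis (0.24, adjusted p = 0.347). In rhabdomyolysis it was lost also with a pseudocount of 0.1 (adjusted p = 0.0711) and without control 6 or 7 or rhabdomyolysis mouse 1 or 3 (adjusted p from 0.0697 to 0.116). Of 3 regulators tested, from 15 listed, 1 rose and 1 fell in IRI and in rhabdomyolysis, and 2 rose and 1 fell in cisplatin, with medians of -0.42, 0.47 and 1.15, counts too small to set apart from the same shares. Clusterin (Clu), which blocks the membrane attack complex, rose from 358 to 3455 CPM in IRI and from 343 CPM to 4667 CPM in rhabdomyolysis and 2144 CPM in cisplatin. Susd4 fell, to 33.1%, 50.2% and 71.6% of controls, and the fall in cisplatin was lost with 75th percentile scaling (adjusted p = 0.0706), with edgeR (adjusted p = 0.0708) and without any 1 of 4 mice, controls 6 and 7 and cisplatin mice 1 and 2 (adjusted p from 0.0525 to 0.0799). The receptor genes, carried by myeloid cells and endothelium, rose in 5 of 6 cases in IRI and 6 of 6 in rhabdomyolysis and cisplatin, where 40.6%, 48.8% and 47.8% of all genes rose. The list has 9 genes, with medians of 1.04, 1.96 and 1.46. Itgam, a chain of complement receptor 3, rose 7.15-fold, 12.5-fold and 10.1-fold, and C5ar1, the receptor of the fragment C5a, 7.56-fold, 11.5-fold and 7.72-fold.

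Of 15 coagulation genes tested, from 27 listed, 7 rose and 7 fell in IRI, 9 and 6 in rhabdomyolysis and 8 and 5 in cisplatin, with medians of 0.04, 1.26 and 1.05. Among all genes 40.6% rose and 40.1% fell in IRI, 48.8% and 46.5% in rhabdomyolysis and 47.8% and 44.0% in cisplatin, so rises and falls in this list are no result about it. The protease-activated receptor gene F2rl1 rose 3.36-fold, 6.27-fold and 5.12-fold. Procr, the receptor of protein C, was 84.6-fold higher in rhabdomyolysis, from 1.26 to 107 CPM, against 8.94-fold in cisplatin and 1.85-fold in IRI, and the IRI call was lost with quantile normalization (log2 0.33, limma adjusted p = 0.116). Proc, the gene of protein C itself, fell to 33.5%, 21.6% and 34.5% of controls, and F13b, the carrier subunit of the clot-stabilising factor XIII, to 29.6%, 19.9% and 18.6%. Of 13 genes of fibrinolysis and fibrin binding, 9 rose in IRI, 12 after rhabdomyolysis and 11 after cisplatin, where 40.6%, 48.8% and 47.8% of all genes did, with medians of 1.59, 2.18 and 2.76 over these 13 of 17 listed. Plaur, the urokinase receptor gene, rose 13.8-fold, 81.6-fold and 39.8-fold. Serpinf2, the gene of the plasmin inhibitor alpha2-antiplasmin, fell in each, to 33.1%, 11.5% and 15.2% of controls.

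Of 19 other acute phase genes tested, 11 rose and 1 fell in IRI, 14 and 1 in rhabdomyolysis and 18 and 1 in cisplatin, where 40.6%, 48.8% and 47.8% of all genes rose and 40.1%, 46.5% and 44.0% fell. The list holds 36 genes, of which 21 are in the table, and its medians were 1.15, 1.65 and 2.76 on the log2 scale, against 0.08, 0.31 and 0.30 for all genes tested. Lcn2, which encodes the iron-siderophore binding protein lipocalin 2, went from 1.09 to 598 CPM in IRI and from 0.760 CPM to 1433 CPM in rhabdomyolysis and 818 CPM in cisplatin. Il1rn, the interleukin-1 receptor antagonist gene, rose by 2.78, 4.07 and 5.26 on the log2 scale. Ttr, the transthyretin gene and a negative acute phase gene of the liver, fell to 18.3%, 9.84% and 16.9% of controls. In rhabdomyolysis the mean of Hp rests on mouse 3, as given above. Saa1, named here after its values were seen, had 0 reads in all 8 controls. It reached a mean of 14.6 CPM in cisplatin and 2.27 CPM in IRI, while the 4 rhabdomyolysis mice averaged 0.215 CPM. C3 had the same order of means. Unlike C3, Saa1 was not called in rhabdomyolysis (limma log2 0.27, adjusted p = 0.224), where it had at most 4 reads a library.

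The ligands, receptors and factors known to act upstream of these genes in the liver were measured too. Of 17 genes of the interleukin-6 family and STAT3 signalling, 10 rose and 3 fell in IRI, and 13 rose and 4 fell in rhabdomyolysis and in cisplatin. The shares of all genes were 40.6%, 48.8% and 47.8% risen and 40.1%, 46.5% and 44.0% fallen. The list has 25 genes, and its medians were 0.99, 2.13 and 1.68. Lif, an interleukin-6 family cytokine gene, rose from 0.314 to 11.2 CPM in IRI and from 0.182 CPM to 20.0 CPM in rhabdomyolysis and 51.6 CPM in cisplatin. Socs3, a feedback inhibitor induced by STAT3, rose 13.5-fold, 25.3-fold and 26.0-fold. The receptor genes Cntfr and Il11ra1 fell, to 30.1%, 29.7% and 53.3% and to 58.7%, 44.4% and 36.2% of controls. Il6 itself, named here after its values were seen, had means of 0.190 CPM in IRI, 1.90 CPM in cisplatin and 3.85 CPM in rhabdomyolysis, and a single read in the 8 controls.

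Among 13 acute phase transcription factor genes, 10 rose and 1 fell in IRI, 9 rose and 3 fell in rhabdomyolysis, and 10 rose and 3 fell in cisplatin, with medians of 0.59, 1.07 and 1.26 over these 13 of 16 listed, beside all-gene shares of 40.6%, 48.8% and 47.8% risen and 40.1%, 46.5% and 44.0% fallen. Cebpd, a C/EBP family gene, rose 6.15-fold, 12.3-fold and 9.29-fold, and Nfkbiz, which encodes a nuclear co-regulator of NF-kappaB, 4.89-fold, 5.65-fold and 4.81-fold. Hnf4a, a regulator of liver and proximal tubule genes, fell from 1234 CPM to 123 CPM in rhabdomyolysis and 359 CPM in cisplatin. Its IRI mean was 850.0 CPM beside 1190 CPM in the matched controls, and it is the 1 gene counted as lower there. That IRI value changed sign with quantile normalization (from log2 -0.48, limma adjusted p = 0.0192, to 0.33, adjusted p = 0.0719). It also missed the threshold with 75th percentile scaling (adjusted p = 0.0650), with edgeR (adjusted p = 0.0549) and without control 3 (adjusted p = 0.0555), so no direction is given for Hnf4a in IRI.

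**Figure D5:**
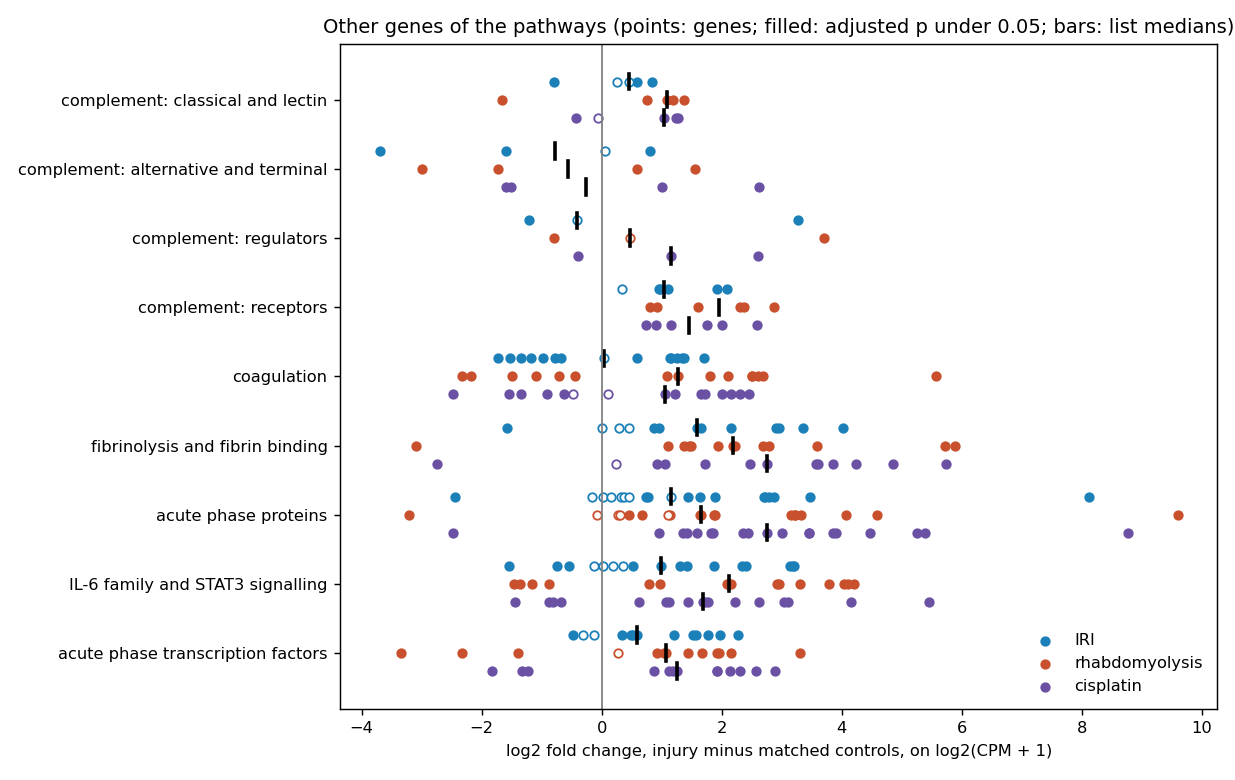
Log2 fold changes against matched controls of the other genes of each pathway (points, filled where the limma adjusted p is under 0.05) in IRI, rhabdomyolysis and cisplatin, with list medians (black bars). Complement receptors lie wholly above 0, coagulation genes lie on both sides, and the acute phase proteins reach farthest to the right with Lcn2.

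Markers of cell types that could carry these transcripts were read in the same libraries. The tissue carried proximal tubule markers, 10 of 10 in the table. Of 18 hepatocyte markers 6 are in the table, and their summed level was 1223 to 2686 CPM in controls, 168 to 378 CPM in IRI, 202 to 383 CPM in cisplatin and 220 to 400 CPM in rhabdomyolysis. Cyp2e1, which the proximal tubule also expresses, made up 1804 CPM of the control mean of 2075 CPM. Of the 6, 1 rose and 5 fell in IRI, 0 and 5 in rhabdomyolysis and 1 and 3 in cisplatin, beside 40.1%, 46.5% and 44.0% of all genes that fell and 40.6%, 48.8% and 47.8% that rose. The riser was Fabp1, at 3.02 to 5.63 CPM in IRI and at most 1.58 CPM in controls. Apoa2 and Apoh, apolipoprotein genes of the liver, were at most 2.13 and 4.79 CPM in any injured mouse and at 3.45 to 6.19 and 2.01 to 9.42 CPM in controls. Alb, Apoa1, Ahsg and the other 9 listed hepatocyte genes were not analysed here.

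The summed level of 8 injured tubule markers went from 95.4 to 150 CPM in controls to 4283 to 5169 CPM in IRI, 3369 to 4590 CPM in cisplatin and 4073 to 4567 CPM in rhabdomyolysis. That of 10 recruited monocyte and neutrophil markers of 12 listed was 19.9 to 24.6 CPM in controls, 58.3 to 86.0 CPM in IRI, 78.6 to 144 CPM in cisplatin and 61.3 to 135 CPM in rhabdomyolysis. The sum of 8 macrophage markers of 11 listed was 85.9 to 121 CPM in controls, 95.4 to 144 CPM in IRI, 190 to 272 CPM in cisplatin and 103 to 249 CPM in rhabdomyolysis, and within it Cd68 rose in each injury while Csf1r fell. The sum of 6 fibroblast and pericyte markers of 8 was 98.5 to 223 CPM in controls, 438 to 540 CPM in IRI, 245 to 698 CPM in cisplatin and 444 to 1286 CPM in rhabdomyolysis. That of 4 endothelial markers of 8 was 174 to 360 CPM in controls, 341 to 381 CPM in IRI, 381 to 537 CPM in cisplatin and 601 to 857 CPM in rhabdomyolysis. The platelet genes Pf4 and Itga2b, 2 of 6 listed, summed to 5.61 to 9.71 CPM in controls and 2.96 to 6.43 CPM over all injured mice. The sum of 3 other nephron markers of 7 was 1774 to 2980 CPM in controls, 409 to 820 CPM in IRI, 401 to 495 CPM in cisplatin and 528 to 755 CPM in rhabdomyolysis. The part of these cell types in the change of any member was not tested.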

How the data were processed

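Kidney cortex RNA was sequenced from 20 mice, 1 library each, as stranded polyadenylated 150-bp pairs with 10 M pairs planned, per the labels' protocols. The submitters' processing notes name FastQC, Bowtie2 2.1.0, RSEM 1.2.15, edgeR and GRCm38/mm10, without roles. The deposited values are CPM, scaled by the authors in a way not given in the sources used here. Values were whole multiples of 1 step in each library, 100% of them within 0.001 of a read, and edgeR on these recovered reads called 4540 genes for IRI (4578 with limma), 5403 for rhabdomyolysis (5404) and 5189 for cisplatin (5208). The step of cisplatin mouse 2 lies near 0.1 CPM and is less certain. Over the genes in the table the reads are 42.1% to 70.6% of the implied library sizes. Samples were grouped by label. The limma p-values rest on the spread between mice within groups, pooled over all groups and moderated across genes. For Serpina3n an exact binomial interval covers counting error only.

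A model with 5 cells (controls of each range and 3 injuries) was fitted with limma 3.58.1 (R 4.3.3; trend, log2(CPM + 1)), with Benjamini-Hochberg adjustment over 5672 genes (353 under 1 CPM were left out). The fit was run on simulated data with few genes changed, in rhabdomyolysis alone. Most genes were called in the real data, so that run does not bear on these calls. Alternatives used edgeR 4.0.16 and DESeq2 1.42.0 on recovered reads, other scalings, pseudocounts and filters, pooled controls, a replicate block and leaving out each mouse. Named genes are the members, the 2 with the highest and the 2 with the lowest mean change called alike in all injuries in each list, and the 2 nearest genes to each member. A gene that this rule names is not reported here. Members and lists were chosen with earlier results of these data known. No table column was left unmapped.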

Additional observations from a re-analysis of the deposited data

Results flagged for a closer look

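Control 2 stood apart from the other 7 controls for Serpina3n: it held all 3 reads of the group, so its gap to the nearest control was the whole range (a share of 1). Of 24 groups of mice and members examined, 1 was picked out in this way, where chance gives about 1.2.

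Members whose change differed between injuries are listed with their limma log2 differences. Between rhabdomyolysis and cisplatin these were C3 (-3.43), Fgg (-1.48), Fga (-1.38) and Cfb (-1.18). Between the IRI and rhabdomyolysis effects they were C3 (1.52), Fga (1.28), Fgg (1.21), Cfb (0.91) and Serpina3n (-1.71). Between the IRI and cisplatin effects they were Serpina3n (-1.99), C3 (-1.91) and Fgb (1.69), and with edgeR the calls of Fgb (1.54 against cisplatin) and Serpina3n (-4.60 against rhabdomyolysis, -4.91 against cisplatin) were lost, the Serpina3n differences being larger than with limma. Cisplatin mice were sampled at 72 h and the others at 24 h, and the comparisons share control and injured mice.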

How the results depend on the processing

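Against matched controls, all 6 members were called in each injury under every alternative run. Of 348 member values under alternatives other than leaving out a mouse, 339 kept direction and call, 4 lost the call and 5 gained it. Of 720 values with 1 mouse left out, 710 kept both, 4 gained the call and 6 changed sign. All 6 were differences that had not been called: Serpina3n between rhabdomyolysis and cisplatin without cisplatin mouse 2 (0.040, range -0.63 to 0.040), and Fga between the IRI and cisplatin effects without control 3 (0.025), control 8 (0.071), IRI mouse 1 (0.012), IRI mouse 3 (0.0039) or cisplatin mouse 2 (0.016), with a range of -0.33 to 0.071. The members called between the IRI and cisplatin effects fell from 3 to 1 with edgeR, and the genes called there rose from 1716 to 2636 with all 8 controls pooled. Hnf4a in IRI changed sign with quantile normalization (0.33); the cause was not tested. Of calls between rhabdomyolysis and cisplatin, 39.6% were higher in rhabdomyolysis, against 51.8% with quantile normalization and 50.7% with DESeq2. Between the IRI and cisplatin effects the share was 44.5%, against 55.3% with quantile normalization.

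The chain ratio with a pseudocount of 1 in both chains was added after seeing the data. It moved the log2 difference from controls of Fgb to Fga from 1.43 to 0.95 in IRI, 1.81 to 1.24 in rhabdomyolysis and -0.28 to -0.84 in cisplatin. That of Fgb to Fgg moved from 0.96 to 0.53, 1.25 to 0.75 and -0.95 to -1.44 in the same order.

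Replicate numbers are shared between groups, but same-numbered mice did not as a rule deviate together (r from -0.29 to 0.32). The highest r was that of mouse 4 in rhabdomyolysis and cisplatin. With the replicate number as a block, 4530 genes were called in IRI, 5376 in rhabdomyolysis, 5196 in cisplatin and 2933 between the last pair, and 6, 6, 6 and 4 members. For the rhabdomyolysis and cisplatin effects that block uses controls 1 to 4. Fgb rests on 8 to 31 reads and Serpina3n on at most 3 in a control, which limits their fold changes.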
